A study of Homo sapiens with 8 samples.

Results

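MDA-MB-231 cells, an established human line from triple-negative breast cancer, were cultured with the compound labelled EMD37 at 0.5 µM or with its DMSO vehicle, and RNA was sequenced after 24 h. The late response described here is the contrast of 2 EMD37 libraries with 2 vehicle libraries, marked A and B in each group, which are 4 of the 8 libraries of the series. The other 4 came from the same treatments at 12 h. All genes with enough reads were compared, 14850 of the 36715 in the count table. No source used here says what EMD37 binds in these cells, whether the 2 libraries of a group came from separate cultures, or what a letter links across groups, so the p-values measure only the spread between these libraries. Every library came from the same line, and the labels name no genetic change.

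The study's title concerns stress of the endoplasmic reticulum (ER), the compartment where secreted and membrane proteins fold. When unfolded protein gathers there, the sensor kinases PERK and IRE1 and the membrane-bound factor ATF6 start the unfolded protein response. PERK slows translation by phosphorylating eIF2 and thereby favours translation of ATF4, which switches on genes of amino acid supply and, through CHOP, of cell death. IRE1 splices the messenger of XBP1, and XBP1 and ATF6 raise chaperones and the machinery that removes misfolded protein. Stress that lasts is known to bring further programmes, among them heat shock, antioxidant and inflammatory genes, and to slow cell division.

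Libraries held 8994977 to 11437813 counted reads, and replicates correlated at r = 0.988 to 0.992 across genes. Markers of the line were abundant, with a summed level of 9827 to 10442 CPM (reads of a gene per 1000000 counted reads) in the vehicle libraries and 7774 to 7838 CPM with EMD37. Of the 13 markers 8 fell, 1, EGFR, rose and 4, VIM among them, were not called. Luminal breast markers summed to 16.9 to 24.6 CPM, and the fibroblast, leukocyte, endothelial and adipocyte sets each to less than 5 CPM in all 4 libraries, with CD3E, CD3D, CD79A and LYZ at 0 reads. The 2 vehicle libraries at 24 h differed most: library B was higher than A by a median log2 of 0.53 in the 10% of genes richest in GC and lower by 0.08 in the poorest 10%, while EMD37 library B was lower than A by 0.20 in the richest. The part of this spread in the results was not tested, apart from the fit with GC offsets given with the alternatives. A gene was called when its Benjamini-Hochberg adjusted p was below 0.05 in the quasi-likelihood test of edgeR, and "rose" or "fell" is used only of called genes. Changes are EMD37 against vehicle on the log2 scale with their standard error after ±. Pairs of CPM values give library A, then B, with 2 libraries per group throughout.

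After 24 h the response reached 40.7% of the genes tested. EMD37 raised 2916 genes (19.6% of those tested) and lowered 3128 (21.1%). These shares over all genes are the background for every list count at 24 h below. The numbers were close but the sizes were not. At least 2-fold rises numbered 920 against 658 falls, at least 4-fold 260 against 65, and at least 8-fold 85 against 4. The median called rise was 1.61-fold and the median called fall 1.54-fold. Genes that rose took 25.8% of normalised reads with vehicle and 41.7% with EMD37, and genes that fell took 30.1% and 20.6%. The median over all genes tested was -0.03. In 6031 of the 6044 called genes both EMD37 libraries lay on the same side of both vehicle libraries, as they did in 66.8% of all genes tested. Of the called genes, 3473 (57.5%) were still called after leaving out each of the 4 libraries at 24 h in turn, and of the 1578 at 2-fold or more, 1103 were.

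**Figure D1:**
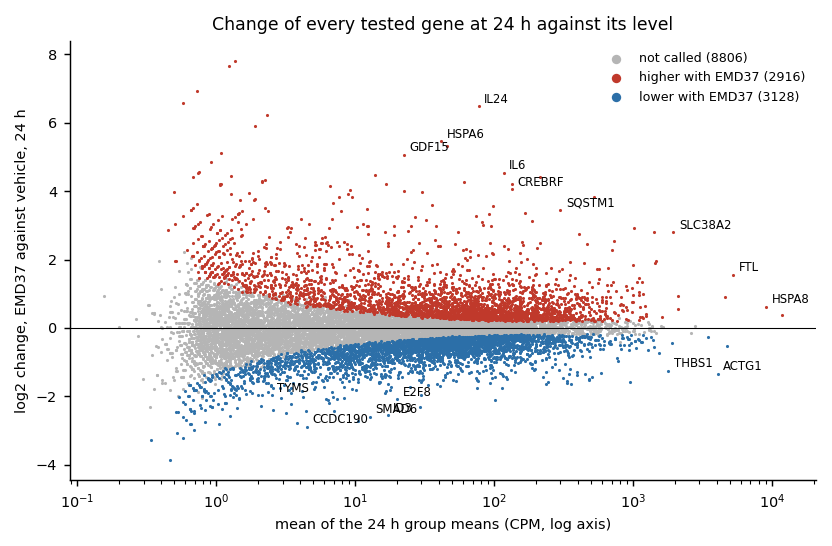
Each point is 1 of the 14850 genes tested, with the mean of the 2 group means at 24 h in CPM on a log axis across and the log2 change of EMD37 against vehicle up; red genes rose, blue genes fell and grey genes were not called. Beyond a change of 3 log2 units lie 85 called rises and 4 called falls.

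The largest changes were ranked among called genes with at least 5 CPM on average in 1 group and groups that did not overlap. By this rule the rises were led by secreted signals and chaperones. IL24, a cytokine of the IL-10 family (ENSG00000162892, chromosome 1, 206897443 to 206904139 on hg38), read 1.57 and 1.83 CPM with vehicle and 158 and 148 CPM with EMD37. Its rise of 6.49 ± 0.20 was 89.6-fold, with adjusted p = 4.71e-13 in edgeR. HSPA6, a heat-inducible cytosolic HSP70 (ENSG00000173110, chromosome 1, 161524540 to 161526910), read 2.04 and 1.62 CPM with vehicle and 81.4 and 81.0 CPM with EMD37, a rise of 5.45 ± 0.16. GDF15, a stress hormone of the TGF-beta family (ENSG00000130513, chromosome 19, 18374731 to 18389176), read 1.20 and 1.40 CPM with vehicle and 49.0 and 38.2 CPM with EMD37, a rise of 5.06 ± 0.24. In each of these genes the EMD37 libraries lay far above both vehicle libraries. The floor of 3 reads used below corresponds to 0.262 to 0.334 CPM. The inflammatory cytokine IL6 (ENSG00000136244, chromosome 7, 22725884 to 22732002) rose from 10.1 and 9.16 to 218 and 230.4 CPM, by 4.54 ± 0.12. The neutrophil chemokine CXCL8 rose from 19.8 and 18.6 to 383 and 438 CPM, by 4.42 ± 0.11, and CXCL2 by 3.99 ± 0.15. PTGS2, the inducible cyclooxygenase, rose from 6.38 and 5.49 to 109 and 120.0 CPM, by 4.26 ± 0.13. The other genes among the 15 largest rises were LURAP1L (5.33 ± 0.19), the TNF-family ligand TNFSF15 (4.47 ± 0.23) and receptor TNFRSF9 (4.04 ± 0.25), the matrix protease MMP3 (4.21 ± 0.22), HSPA1A (4.21 ± 0.11), the ketosteroid reductase AKR1C1 (4.14 ± 0.35), CREBRF (4.05 ± 0.12), a regulator of the ER stress factor CREB3, and the chloride channel BEST1 (4.02 ± 0.18). HSPA1A and HSPA1B are near-identical and AKR1C genes are close paralogs, so how reads divide among the copies is uncertain.

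IL24 stands in a cluster of cytokine genes on chromosome 1. IL19 (206798870 to 206842981) and IL20 (206865354 to 206869223), named here after their values were seen, lie just before it (206897443 to 206904139). IL19 read 0 and 0 CPM with vehicle and 3.06 and 2.41 CPM with EMD37, and IL20 read 0.0925 and 0.215 CPM with vehicle and 1.58 and 3.19 CPM with EMD37. Both were called, but their vehicle libraries were at or under the floor of 3 reads, so no fold is given.

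By the same rule, regulators of BMP signalling, DNA replication and several long noncoding RNAs led the falls. The 4 called falls of at least 8-fold did not meet the rule and are not among those named. SMAD6, the inhibitory SMAD of the BMP pathway (ENSG00000137834, chromosome 15, 66702228 to 66782848), read 23.6 and 20.4 CPM with vehicle and 3.70 and 3.57 CPM with EMD37, a change of -2.60 ± 0.20 with adjusted p = 3.24e-08 in edgeR. ID1 and ID3, which encode dominant-negative helix-loop-helix proteins and are classical BMP targets, fell from 46.5 and 50.6 to 11.5 and 7.92 CPM (-2.33 ± 0.15) and from 25.0 and 33.5 to 5.17 and 4.73 CPM (-2.56 ± 0.20). E2F8 and E2F2, both E2F-family factors of the cell cycle, fell from 35.0 and 29.8 to 7.71 and 7.53 CPM (-2.09 ± 0.16) and from 9.25 and 11.5 to 2.53 and 2.22 CPM (-2.12 ± 0.25). The histone H3 gene H3C12 fell from 153 and 179 to 41.4 and 35.1 CPM (-2.12 ± 0.10). PNPLA3, a lipid droplet hydrolase, changed by -2.21 ± 0.41 and the peptide hormone gene APLN by -2.20 ± 0.29. CCDC190 (-2.90 ± 0.30), LCT-AS1 (-2.78 ± 0.33), LASTR (-2.71 ± 0.20), ENSG00000214776 (-2.48 ± 0.34), KIAA1755 (-2.44 ± 0.36), the E3 ligase NEURL1B (-2.42 ± 0.22) and PCYOX1L (-2.08 ± 0.22) completed the 15 largest falls. The 2 groups did not overlap in any of these 30 genes, by the rule that chose them.

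**Figure D2:**
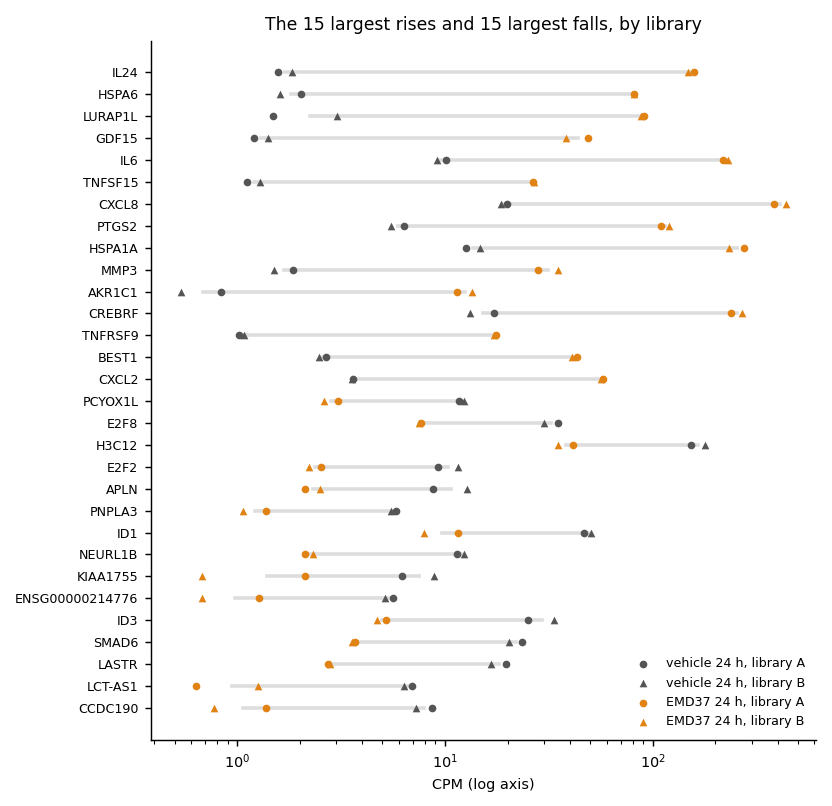
CPM on a log axis in each of the 4 libraries at 24 h for the 15 largest rises and 15 largest falls, with grey symbols for vehicle, orange for EMD37, circles for library A and triangles for library B, and a bar between the group means. The EMD37 pair lies to the right of the vehicle pair in the upper 15 genes and to the left in the lower 15.

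Abundant transcripts moved as well, ranked here among genes in the count table. Genes outside it, such as NEAT1 given below, were not ranked. Several very abundant genes such as ACTB had few counted reads. In absolute CPM the largest gains were FTL, the ferritin light chain, which rose from 2626 and 2724 to 8069.6 and 7549 CPM, and the cytosolic chaperone gene HSPA8, which rose from 7884 and 6496 to 10253 and 11755 CPM. SLC38A2, an amino acid transporter, rose from 503 and 478 to 3255 and 3576 CPM, HSP90AA1 from 3434 and 2989 to 5722 and 6331 CPM, and HSPA5, the ER chaperone BiP, from 365 and 342 to 2343 and 2624 CPM. TXNRD1 (1.89 ± 0.08), SLC7A11 (2.91 ± 0.08) and CANX, the ER lectin calnexin (0.92 ± 0.08), were also among the 10. EEF1A1, a translation elongation factor, rose by 0.37 ± 0.11, and that call was lost without EMD37 library B at 24 h (adjusted p = 0.101). The largest losses were those of the cytoskeletal genes ACTG1, which fell from 5417 and 6276 to 2309 and 2305 CPM, and AHNAK, which fell from 5357 and 5874 to 3847 and 3989 CPM. THBS1 (-1.25 ± 0.08), the serine protease gene PRSS23 (-1.57 ± 0.08), the caveolar coat gene CAV1 (-0.72 ± 0.08), TUBB (-0.55 ± 0.09), NUCKS1 (-0.43 ± 0.08) and H4C3 (-0.97 ± 0.09) were also among the 10 largest.

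Genes that sense unfolded protein and pass the signal on held more rises than falls at 24 h. Of 22 sensors and transducers tested, 10 rose, 5 fell and 7 were not called, with a median of 0.16, against -0.03 over all genes. PPP1R15A, the stress-induced subunit of the eIF2 phosphatase, rose from 219 and 266 to 1186 and 1146 CPM (2.27 ± 0.09). XBP1 rose from 149 and 132 to 316 and 348 CPM (1.24 ± 0.09), and the sensor genes ERN1, which encodes IRE1, and EIF2AK3, which encodes PERK, changed by 1.08 ± 0.12 and 1.14 ± 0.13. The constitutive phosphatase subunit PPP1R15B changed by 0.48 ± 0.07 and the double-stranded RNA kinase EIF2AK2 by 0.47 ± 0.07. MBTPS2, the site-2 protease that cleaves ATF6, went the other way (-0.69 ± 0.11). The 5 falls became 1 in DESeq2 or without EMD37 library A at 24 h, 3 with RLE size factors or with no filter on low counts or with recovered reads or with GC offsets or with only the 24 h libraries or without vehicle library A or vehicle library B or EMD37 library B at 12 h and 2 without vehicle library A or EMD37 library B at 24 h.

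ATF4 works through basic leucine zipper (bZIP) partners, and several of these rose at least 4-fold. 10 of 19 bZIP factors rose and 2 fell, with a median of 0.54, against 19.6% higher and 21.1% lower over all genes. The 2 that fell were ATF5 and CREBZF, each by less than 1 log2 unit. ATF3, a stress-induced partner of the family, rose from 7.59 and 5.49 to 55.6 and 61.4 CPM (3.15 ± 0.16), and DDIT3, which encodes CHOP, from 23.4 and 18.5 to 104 and 106 CPM (2.32 ± 0.12). CEBPB changed by 2.12 ± 0.13, CEBPG by 1.09 ± 0.07 and ATF4 itself by 1.09 ± 0.08.

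Among ER folding enzymes, 11 of 25 disulfide isomerases and oxidases rose and 4 fell, with a median of 0.16. The oxidase ERO1B rose from 12.0 and 11.6 to 36.9 and 42.4 CPM (1.74 ± 0.14), PDIA4 by 1.26 ± 0.09, P4HB by 1.15 ± 0.10 and PDIA3 by 1.14 ± 0.09, while the membrane thioredoxin TMX4 (-0.63 ± 0.08) and VKORC1 (-0.64 ± 0.10), the vitamin K epoxide reductase, fell. The 4 falls became 2 in DESeq2 or with only the 24 h libraries or without vehicle library A at 24 h. In the translocon and vesicle coat list 32 of 48 rose and 2 fell, with a median of 0.45. They included the COPII cargo adaptor SEC24D (1.47 ± 0.09), the translocon-associated TRAM1 (1.09 ± 0.08) and SSR1 (0.90 ± 0.08), the channel subunit SEC61A1 (0.84 ± 0.08) and the COPI subunit COPG1 (0.80 ± 0.08).

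HSPA5 rose by 2.81 ± 0.10, with adjusted p = 2.73e-12 in edgeR, and its promoter holds the ER stress response element, a CCAAT box 9 bases before CCACG. The 250 bases before the RefSeq start sites of HSPA5 (chr9:125241344-125241593, minus strand, GRCh38.p14) and ERO1B (chr1:236281959-236282208, minus strand) are shown 5′ to 3′ on the gene's strand, with the match to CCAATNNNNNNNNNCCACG on either strand in capitals, because these were the members with the element among the 70 called higher in the ER enzyme, coat, HSP70 and ubiquitin lists.
HSPA5: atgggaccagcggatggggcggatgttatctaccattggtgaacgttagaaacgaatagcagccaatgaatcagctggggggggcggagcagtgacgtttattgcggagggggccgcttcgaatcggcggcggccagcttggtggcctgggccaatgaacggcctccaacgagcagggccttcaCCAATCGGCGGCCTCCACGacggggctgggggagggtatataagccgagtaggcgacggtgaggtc
ERO1B: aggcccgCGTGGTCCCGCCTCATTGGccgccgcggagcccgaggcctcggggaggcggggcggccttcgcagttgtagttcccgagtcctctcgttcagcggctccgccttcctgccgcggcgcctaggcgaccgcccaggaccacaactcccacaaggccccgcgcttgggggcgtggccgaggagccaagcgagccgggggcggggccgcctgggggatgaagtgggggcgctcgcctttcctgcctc
The HSPA5 match spans bases 66 to 48 before the start, and the ERO1B match, on the opposite strand, 243 to 225. Of all 27305 promoters in the table, 22 (0.0806%) held the element in the same window. It stood in 2 of the 70 members that rose (2.86%) and in 1 of the 45 other tested members (2.22%), a similar share.

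Amino acid transporters and synthesis genes mostly rose. In the transporter list 14 of 23 rose and 0 fell in edgeR or in DESeq2 (1 fell at an unadjusted p below 0.05), with a median of 0.79. SLC7A11, the cystine importer, rose from 241 and 238 to 1745 and 1849 CPM and SLC3A2, its heavy chain, from 205 and 224 to 1293 and 1211 CPM (2.54 ± 0.08). The glycine transporter SLC6A9 changed by 2.64 ± 0.29, the taurine transporter SLC6A6 by 1.56 ± 0.09 and the glutamine transporter SLC38A1 by 1.46 ± 0.07. In amino acid and one-carbon synthesis 13 of 25 rose and 6 fell. CTH, which makes cysteine from cystathionine, rose from 6.01 and 5.28 to 47.1 and 43.1 CPM (2.99 ± 0.15), and the serine pathway genes PSPH (1.15 ± 0.11), PSAT1 (0.81 ± 0.08) and SHMT2 (0.89 ± 0.08) and the mitochondrial folate gene MTHFD2 (0.76 ± 0.08) rose with it. Members that fell included the cytosolic SHMT1 (-0.83 ± 0.09) and TYMS, the thymidylate synthase of DNA synthesis (-1.97 ± 0.36). Of 23 cytosolic aminoacyl-tRNA synthetases and partners 11 rose and 5 fell. YARS1 (1.56 ± 0.16), WARS1 (1.16 ± 0.08), SARS1 (1.15 ± 0.08) and CARS1 (1.14 ± 0.08) rose, and FARSB (-0.76 ± 0.12) and AIMP2 (-0.80 ± 0.16) fell. The 5 falls became 2 without EMD37 library A at 24 h. The mitochondrial synthetases held 6 falls among 16 and 0 rises in edgeR, in DESeq2 or at an unadjusted p below 0.05. The 6 falls became 2 without EMD37 library B at 24 h.

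ATF4 and its partners bind a C/EBP-ATF composite element, searched here as TGATGNAA on both strands. ASNS, asparagine synthetase, named for its promoter, rose from 1.85 and 1.51 to 11.6 and 7.63 CPM (2.49 ± 0.28) and CHAC1, which breaks down glutathione, from 3.24 and 5.39 to 38.2 and 29.7 CPM (2.99 ± 0.22). Their promoters, ASNS at chr7:97872409-97872658 (minus strand) and CHAC1 at chr15:40953221-40953470 (plus strand), are shown as the classical targets among the 7 rising list members that hold it, with the match in capitals.
ASNS: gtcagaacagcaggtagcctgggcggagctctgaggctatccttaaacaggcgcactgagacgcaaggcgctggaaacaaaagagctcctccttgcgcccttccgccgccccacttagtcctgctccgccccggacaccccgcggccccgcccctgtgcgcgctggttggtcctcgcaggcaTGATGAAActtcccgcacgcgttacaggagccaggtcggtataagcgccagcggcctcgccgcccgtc
CHAC1: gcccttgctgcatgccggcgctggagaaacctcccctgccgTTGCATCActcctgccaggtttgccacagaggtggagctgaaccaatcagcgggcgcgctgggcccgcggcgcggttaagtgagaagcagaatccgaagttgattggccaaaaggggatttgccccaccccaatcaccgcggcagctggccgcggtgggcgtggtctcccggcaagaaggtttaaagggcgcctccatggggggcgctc
The match lies 68 to 61 bases before the start of ASNS and 209 to 202 before that of CHAC1. ATF3, MTHFD1L, BCAT1, AARS1 and IARS1 were the other 5.

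Secreted stress factors other than GDF15 moved in both directions. In all 10 of 19 stress-linked factors and pseudokinases rose and 2 fell. INHBA, the activin A subunit, rose from 64.5 and 65.6 to 244 and 255 CPM (1.94 ± 0.08), and the pseudokinase gene TRIB3 from 31.6 and 34.6 to 141 and 141 CPM (2.10 ± 0.09). TRIB2 (-1.33 ± 0.11) and the EGF-family ligand HBEGF (-1.05 ± 0.09) fell. Among regulators of mTORC1, the kinase complex that couples amino acids to growth, 13 of 24 rose and 2 fell. The inhibitor DDIT4 rose from 20.4 and 22.4 to 181 and 156 CPM (2.98 ± 0.10). RRAGC (2.03 ± 0.10) and RRAGD (1.35 ± 0.09), Rag GTPases that recruit the complex to lysosomes, and FNIP1, a partner of folliculin (1.49 ± 0.08), also rose, as did the S6 kinase gene RPS6KB1 (1.00 ± 0.08). EIF4EBP2, a brake on cap-dependent translation, fell (-0.88 ± 0.07), while EIF4EBP1, a brake of the same kind given below with the initiation factors, rose.

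Many cytosolic and ER chaperones rose. In the HSP70, HSP110 and BAG family list 14 of 24 rose and 1 fell, with a median of 0.59. HSPA1A read 12.7 and 14.8 CPM with vehicle and 275 and 232 CPM with EMD37 and HSPA1B 65.8 and 70.9 CPM with vehicle and 1029 and 915 CPM with EMD37 (3.83 ± 0.10), so both copies were high in both EMD37 libraries. The ER nucleotide exchange factor HYOU1 changed by 1.75 ± 0.09 and HSPA13 by 1.33 ± 0.08. In the HSP90, HSP40 and small HSP list 17 of 31 rose and 3 fell. The ER cochaperone DNAJB9 rose from 28.7 and 29.7 to 280.5 and 325 CPM (3.38 ± 0.10), DNAJB4 by 2.02 ± 0.08, DNAJB1 by 1.74 ± 0.07, HSP90B1, the ER HSP90, by 1.34 ± 0.10 and the HSP90 activator AHSA1 by 0.84 ± 0.08. FKBP5, a glucocorticoid-responsive cochaperone, fell (-1.12 ± 0.16).

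HSF1 binds heat shock elements, inverted nGAAn units, searched as TTCNNGAANNTTC. HSPA6 (promoter chr1:161524290-161524539, plus strand) and HSPA8 (chr11:123062137-123062386, minus strand), the member with the largest rise and the most abundant of those holding it, are shown with matches in capitals.
HSPA6: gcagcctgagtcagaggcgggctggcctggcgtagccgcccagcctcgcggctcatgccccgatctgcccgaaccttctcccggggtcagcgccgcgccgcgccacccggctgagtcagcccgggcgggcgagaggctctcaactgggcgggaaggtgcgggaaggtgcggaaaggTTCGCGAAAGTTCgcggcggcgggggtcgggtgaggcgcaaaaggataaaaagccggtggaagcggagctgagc
HSPA8: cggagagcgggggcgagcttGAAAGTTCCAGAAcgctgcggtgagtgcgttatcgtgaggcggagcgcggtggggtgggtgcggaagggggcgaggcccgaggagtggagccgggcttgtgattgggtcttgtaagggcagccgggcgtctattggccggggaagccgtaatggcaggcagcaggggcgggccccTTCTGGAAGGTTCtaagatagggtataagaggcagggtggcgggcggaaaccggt
HSPA6 holds 1 match, 74 to 62 bases before its start, and HSPA8 holds 2. DNAJB6 was the remaining member with a match among 30 that rose.

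Genes of ubiquitin supply and ER-associated degradation mostly rose, and few proteasome genes were called. In all 24 of 37 genes of ubiquitin supply, ER-associated degradation and the p97 segregase rose and 2 fell, with a median of 0.45. HERPUD1, an organiser of the HRD1 complex, rose from 36.9 and 33.1 to 147 and 169.9 CPM (2.18 ± 0.10). SELENOK rose by 1.57 ± 0.09 and SELENOS, both selenoproteins of the ER membrane, by 1.43 ± 0.09, SEL1L, the core adaptor of HRD1, by 0.97 ± 0.08 and the conjugating enzyme gene UBE2H by 1.25 ± 0.08. Of 39 proteasome genes 4 rose and 3 fell, with a median of 0.03 and PSMC4, a cap ATPase, at 0.43 ± 0.08. The 4 rises became 2 with no filter on low counts or with only the 24 h libraries or without vehicle library B or EMD37 library B at 24 h, 8 with the crossed replicate block and 9 with GC offsets or without vehicle library A at 24 h, and the 3 falls became 1 in DESeq2, 6 without vehicle library B at 24 h and 0 without EMD37 library A at 24 h.

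Redox and iron genes changed in part. In the NRF2, thioredoxin and glutathione list 17 of 34 rose and 4 fell. Thioredoxin reductase TXNRD1 rose from 624 and 609.6 to 2219 and 2346 CPM, AKR1C1 from 0.833 and 0.539 to 11.4 and 13.5 CPM, BACH1, a repressor that competes with NRF2, by 1.47 ± 0.08, SOD2, the mitochondrial superoxide dismutase, by 1.20 ± 0.07 and GCLM, the modifier subunit of glutathione synthesis, by 0.89 ± 0.08. The 4 falls became 1 without EMD37 library A at 24 h. In the iron and ferroptosis list 7 of 22 rose (31.8%) and 4 fell (18.2%), against 19.6% and 21.1% of all genes. HMOX1, heme oxygenase 1, rose from 13.3 and 11.6 to 68.1 and 64.7 CPM (2.41 ± 0.12), FTL by 1.55 ± 0.09 and the zinc and iron importer gene SLC39A14 by 0.90 ± 0.08, while metallothionein MT1E (-1.64 ± 0.11) and the zinc exporter gene SLC30A1 (-0.99 ± 0.08) fell. FTH1, the ferritin heavy chain, read 10.5 and 17.6 CPM with vehicle and 103 and 89.9 CPM with EMD37, a fraction of FTL, and because other genes overlap 62.4% of its exonic sequence its change is uncertain. The 4 falls became 2 with only the 24 h libraries. NRF2 binds antioxidant response elements, searched as TGACNNNGCA, and the GCLM promoter (chr1:93909431-93909680, minus strand) is shown as the member of the glutathione pathway that held one.
GCLM: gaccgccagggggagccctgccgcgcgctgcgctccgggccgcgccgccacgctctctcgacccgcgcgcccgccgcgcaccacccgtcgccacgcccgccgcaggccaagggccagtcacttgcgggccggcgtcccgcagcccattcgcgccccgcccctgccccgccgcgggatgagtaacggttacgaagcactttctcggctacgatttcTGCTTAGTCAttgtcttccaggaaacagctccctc
Its match, in capitals, lies 35 to 26 bases before the start. AIFM2 was the other member, of 19 that rose, with a match.

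Inflammatory ligands and feedback genes of NF-kB were prominent among the rises. Of 20 chemokines listed, 9 had enough reads, 5 rose and 0 fell in edgeR, in DESeq2 or at an unadjusted p below 0.05. They were CXCL8, CXCL2, CXCL3 (2.97 ± 0.19), CXCL1 (1.57 ± 0.16) and CCL26 (2.76 ± 0.58). Of 29 interleukins, colony-stimulating factors and receptors 16 rose and 4 fell. IL1A, an alarm cytokine, rose from 1.30 and 1.40 to 11.8 and 12.8 CPM (3.19 ± 0.26). Receptors of the IL-6 family rose less, IL6R by 1.48 ± 0.16, the shared signal chain IL6ST by 0.96 ± 0.08 and OSMR by 0.90 ± 0.08, and IL7R (-0.37 ± 0.07) and IL4R (-0.53 ± 0.12) fell. In the NF-kB list 21 of 30 rose and 1 fell, with a median of 0.67. The deubiquitinase TNFAIP3 rose from 14.2 and 19.5 to 164 and 171 CPM (3.32 ± 0.12), its partner TNIP1 by 1.87 ± 0.13, the adaptor TRAF1 from 16.7 and 17.3 to 149 and 144 CPM (3.11 ± 0.10), the inhibitor of apoptosis BIRC3 from 147 and 141 to 746 and 821 CPM (2.45 ± 0.08) and the adhesion molecule ICAM1 from 8.42 and 13.2 to 65.3 and 62.4 CPM (2.57 ± 0.16).

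The kappaB site was searched as GGGNNTTTCC, and the IL6 (chr7:22726950-22727199, plus strand), CXCL2 (chr4:74099196-74099445, minus strand) and TNFAIP3 (chr6:137867009-137867258, plus strand) promoters, a cytokine, a chemokine and a feedback inhibitor, are shown as the 3 largest rises that hold it.
IL6: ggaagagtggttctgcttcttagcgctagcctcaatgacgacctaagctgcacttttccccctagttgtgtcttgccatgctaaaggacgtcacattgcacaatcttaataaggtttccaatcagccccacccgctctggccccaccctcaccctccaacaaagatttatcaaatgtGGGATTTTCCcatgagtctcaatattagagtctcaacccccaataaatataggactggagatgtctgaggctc
CXCL2: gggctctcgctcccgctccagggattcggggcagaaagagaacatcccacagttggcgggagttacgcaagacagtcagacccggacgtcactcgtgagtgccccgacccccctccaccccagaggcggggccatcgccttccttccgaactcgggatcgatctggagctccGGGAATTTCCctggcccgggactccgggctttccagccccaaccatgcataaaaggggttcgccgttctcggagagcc
TNFAIP3: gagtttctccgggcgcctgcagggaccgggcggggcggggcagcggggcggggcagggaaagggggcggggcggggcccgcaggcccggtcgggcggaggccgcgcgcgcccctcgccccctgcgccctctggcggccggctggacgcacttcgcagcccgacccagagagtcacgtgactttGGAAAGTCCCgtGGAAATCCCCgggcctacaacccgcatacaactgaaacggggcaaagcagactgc
The match lies 73 to 64 bases before the start of IL6 and 78 to 69 before that of CXCL2. TNFAIP3 holds 2, both on the opposite strand. CXCL1, CXCL3, IL32, NFKB1, REL, NFKBIA, NFKBIZ and BIRC3 were the other members called higher with a match. Of these, NFKB1, REL and NFKBIZ rose by less than 1 log2 unit, and the adjusted p of NFKBIZ lay just under 0.05 in edgeR.

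Other inflammatory groups were mixed, against 19.6% higher and 21.1% lower over all genes. Of 20 TNF superfamily genes 6 rose (30%) and 3 fell (15%). The TRAIL receptors TNFRSF10D and TNFRSF10B rose by 1.68 ± 0.09 and 0.76 ± 0.08, and the costimulatory ligand TNFSF9 by 1.68 ± 0.19, while the death receptor gene TNFRSF21 fell (-0.78 ± 0.09). The 3 falls became 5 with no filter on low counts or with the crossed replicate block or with GC offsets and 6 without vehicle library A at 24 h. In the prostaglandin pathway 8 of 18 rose (44.4%) and 3 fell (16.7%). PTGES, the terminal synthase of prostaglandin E2, rose by 0.85 ± 0.12 and the receptor PTGER3 by 3.08 ± 0.62, and the receptor PTGFR fell (-1.11 ± 0.11). The 8 rises became 5 without EMD37 library B at 24 h. Interferon-stimulated genes held more falls than rises, with 13 of 34 lower, 5 higher and a median of -0.36. IFIT1 fell from 268 and 252 to 107 and 122 CPM (-1.18 ± 0.09), and OAS2 (-1.34 ± 0.18), OASL (-1.35 ± 0.18) and IFIT3 (-0.74 ± 0.08) also fell, whereas MX1 rose (0.97 ± 0.21). The 5 rises became 2 without vehicle library B at 24 h and 1 without EMD37 library B at 24 h.

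Most AP-1 genes, classical immediate early genes, were higher at 24 h. In the list 9 of 12 FOS, JUN and small MAF genes rose and 0 fell in edgeR, in DESeq2 or at an unadjusted p below 0.05, with a median of 1.45. MAFF rose from 51.1 and 59.7 to 250.2 and 257 CPM (2.20 ± 0.09), MAFG by 1.74 ± 0.11, JUND by 1.36 ± 0.12, FOS by 1.54 ± 0.20 and FOSL2 by 0.93 ± 0.09. Among KLF, EGR, IER, NR4A and MYC-network genes 19 of 35 rose and 4 fell. MXD1, which opposes MYC at shared sites, rose from 22.1 and 24.3 to 115 and 106 CPM (2.25 ± 0.10), MYC from 178 and 182 to 536 and 514 CPM (1.55 ± 0.07), KLF9 by 2.39 ± 0.16, KLF11 by 2.00 ± 0.15 and KLF4 by 1.51 ± 0.09, and SRF fell (-0.62 ± 0.11). Of the phosphatases and Sprouty proteins that dampen MAP kinases 10 of 20 rose and 5 fell. DUSP10, which acts on JNK and p38, rose from 62.9 and 65.6 to 354 and 371 CPM (2.50 ± 0.08) and DUSP1 by 1.61 ± 0.09. DUSP6, which acts on ERK and is induced by it, fell from 159 and 154 to 66.0 and 60.1 CPM (-1.31 ± 0.08), and SPRY1 fell with it (-1.30 ± 0.13). The 5 falls became 3 in DESeq2 or with only the 24 h libraries or without EMD37 library A or EMD37 library B at 12 h and 2 without vehicle library B or EMD37 library B at 24 h. EGF-family ligands split: EREG rose from 27.2 and 29.8 to 149 and 167 CPM (2.47 ± 0.10) and EGFR by 0.88 ± 0.08, while HBEGF and TGFA (-0.84 ± 0.08) fell, with 6 of 16 in all higher and 4 lower. The 4 falls became 2 in DESeq2 or with only the 24 h libraries or without EMD37 library A or EMD37 library B at 24 h.

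The BMP list held more rises than falls, and the YAP list more falls than rises. In the BMP, TGF-beta and SMAD list 13 of 38 rose and 11 fell, and the 3 members with the largest falls were SMAD6, ID3 and ID1. ID2, of the same family as ID1 and ID3 and named after its values were seen, read 1.39 and 1.08 CPM with vehicle and 2.85 and 2.90 CPM with EMD37, a rise of 1.20 ± 0.34, and its call was lost without vehicle library B at 24 h (adjusted p = 0.0674) and without EMD37 library B at 24 h (adjusted p = 0.0505) and in DESeq2 (adjusted p = 0.0757). The TGF-beta receptors TGFBR3 (1.03 ± 0.11) and TGFBR1 (0.78 ± 0.08) rose. Of 33 YAP, TEAD and SRF genes 19 fell and 5 rose, with a median of -0.35. CCN2, a classical YAP target, fell from 489 and 517 to 162 and 167 CPM (-1.62 ± 0.08), THBS1 from 2546 and 2513 to 1008 and 1115 CPM, and the tropomyosins TPM1 (-0.57 ± 0.08) and TPM4 (-0.49 ± 0.07) less. CCN3 (2.84 ± 0.16) and the Hippo kinases LATS1 (0.48 ± 0.08) and LATS2 (0.47 ± 0.10) rose. In the Notch, Wnt and Hedgehog list 11 of 31 fell and 6 rose, the Wnt receptors FZD1 (-1.39 ± 0.16) and FZD4 (-0.82 ± 0.10) and the Notch target HES1 (-0.89 ± 0.11) falling and the Wnt inhibitor DKK1 (1.00 ± 0.09) and HEY1 (1.61 ± 0.29) rising.

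Genes of DNA replication and division fell broadly. In bulk libraries fewer dividing cells and less RNA per dividing cell cannot be told apart. Of 51 genes of replication licensing and forks 44 fell and 1 rose, against 21.1% and 19.6% of all genes, and the median was -0.74. CDC7, the kinase that fires origins, fell from 96.8 and 92.6 to 36.5 and 39.0 CPM (-1.33 ± 0.09), and the helicase and polymerase genes MCM3 (-1.04 ± 0.08), MCM10 (-1.18 ± 0.09), GINS1 (-1.09 ± 0.08) and POLD3 (-1.16 ± 0.08) and the checkpoint adaptor CLSPN (-0.96 ± 0.08) fell likewise. Of 27 nucleotide supply genes 19 fell and 0 rose in edgeR, in DESeq2 or at an unadjusted p below 0.05: RRM2, the regulated subunit of ribonucleotide reductase, fell from 416 and 400.2 to 173 and 174 CPM (-1.23 ± 0.08), DUT changed by -0.87 ± 0.10 and CAD, the entry enzyme of pyrimidine synthesis, by -0.77 ± 0.10. Upstream, 12 of 23 E2F, RB and cyclin E/A genes fell and 5 rose. E2F1 (-1.11 ± 0.12), CCNE2 (-1.53 ± 0.13), CCNA2 (-1.03 ± 0.08) and CDC25A (-0.89 ± 0.08) fell, while E2F7 (0.61 ± 0.08) and E2F5 (0.51 ± 0.12) rose. The 5 rises became 3 in DESeq2 or with no filter on low counts or with only the 24 h libraries or without EMD37 library A at 12 h or without vehicle library B at 24 h and 2 without EMD37 library B at 24 h. E2F sites were searched as TTTNNCGC, and the E2F2 promoter (chr1:23531234-23531483, minus strand) is shown as the largest fall that holds one.
E2F2: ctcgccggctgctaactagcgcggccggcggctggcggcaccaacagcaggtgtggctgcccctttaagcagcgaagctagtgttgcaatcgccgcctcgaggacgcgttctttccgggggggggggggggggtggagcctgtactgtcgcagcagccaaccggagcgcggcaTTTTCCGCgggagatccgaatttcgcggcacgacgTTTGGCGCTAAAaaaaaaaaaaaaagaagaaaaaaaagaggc
It holds 3 matches, in capitals, the last 2 overlapping on opposite strands.

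Recombination and Fanconi genes, which repair broken and crosslinked DNA, followed: 26 of 36 fell and 0 rose in edgeR, in DESeq2 or at an unadjusted p below 0.05, with a median of -0.64. The nuclease EXO1 fell from 84.0 and 75.9 to 27.2 and 27.1 CPM (-1.56 ± 0.11), BARD1, the partner of BRCA1, from 7.96 and 6.79 to 2.43 and 2.41 CPM (-1.61 ± 0.24), and the checkpoint kinase CHEK1 changed by -0.64 ± 0.08. Of the mitotic kinases, cyclins and APC/C genes 28 of 37 fell and 0 rose in edgeR, in DESeq2 or at an unadjusted p below 0.05. CDK1 fell from 529 and 469.8 to 186 and 202 CPM (-1.36 ± 0.09) and FBXO5, the APC/C inhibitor, from 156 and 138 to 54.5 and 54.3 CPM (-1.44 ± 0.09), with CCNF at -1.30 ± 0.11, AURKA at -0.87 ± 0.08 and CDC20 at -0.91 ± 0.08. Among centromere and kinetochore genes 33 of 41 fell and 2 rose, led by ZWINT (-1.47 ± 0.09), SPC24 (-1.22 ± 0.08) and CENPI (-1.12 ± 0.11), and the risers CENPJ (0.41 ± 0.09) and MIS12 (0.31 ± 0.08) are a centriole and a kinetochore gene. Kinesins moved both ways: KIF20A (-1.28 ± 0.10), KIF23 (-1.44 ± 0.16) and KIF11 (-0.76 ± 0.08), which act in mitosis, fell, and KIF13B (0.86 ± 0.23), KIF16B (0.64 ± 0.12) and KIF3A (0.58 ± 0.12) rose, with 15 of 31 lower and 4 higher. Condensin and cohesin held 12 falls of 24, TOP2A among them (-1.32 ± 0.11), and 3 rises, with the cohesin acetylase gene ESCO1 at 0.93 ± 0.09. The 3 rises became 5 with GC offsets and 1 without EMD37 library B at 24 h. Tubulins held 8 falls and 3 rises among 13, TUBA4A with the smallest p (-0.67 ± 0.09).

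Mitotic promoters often hold a cell cycle homology region, searched as TTTGAA. ZWINT (chr10:56361260-56361509, minus strand), the largest kinetochore fall, is shown with its match in capitals, 31 to 26 bases before the start and on the opposite strand.
ZWINT: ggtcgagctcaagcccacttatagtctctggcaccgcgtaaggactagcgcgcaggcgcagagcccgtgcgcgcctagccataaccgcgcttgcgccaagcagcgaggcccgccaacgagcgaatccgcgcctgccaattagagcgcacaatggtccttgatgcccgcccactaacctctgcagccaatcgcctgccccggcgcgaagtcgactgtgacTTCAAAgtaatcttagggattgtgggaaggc
In the CDK inhibitor and cyclin D list, which holds drivers of division as well as brakes on it, 12 of 20 rose and 4 fell. The genes that rose included drivers such as the cyclin D gene CCND2. The stress gene GADD45A rose from 68.6 and 68.6 to 210.1 and 220.0 CPM (1.65 ± 0.08), CCNG2, a cyclin linked to arrest, from 9.44 and 8.40 to 42.1 and 45.1 CPM (2.28 ± 0.14), CCND2 by 2.97 ± 0.15 and BTG1 by 0.92 ± 0.08, while CDKN2C, an inhibitor of CDK4 and CDK6, fell from 74.3 and 76.3 to 26.1 and 26.6 CPM (-1.51 ± 0.10) and CDKN3 changed by -1.21 ± 0.13. The 4 falls became 2 without EMD37 library B at 24 h.

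Several death-promoting members of the BCL2 family rose. In all 9 of 19 rose and 3 fell. BBC3, which encodes PUMA, rose from 1.11 and 2.15 to 9.08 and 8.30 CPM (2.43 ± 0.36), BMF from 4.81 and 3.77 to 18.4 and 17.7 CPM (2.06 ± 0.19), PMAIP1, which encodes NOXA, by 1.17 ± 0.08 and the mitophagy receptor BNIP3L by 1.39 ± 0.08. Of the survival members BCL2L2 rose (0.90 ± 0.08) and BCL2L1, which encodes BCL-XL, fell (-0.64 ± 0.10). The 3 falls became 1 in DESeq2 or without vehicle library B or EMD37 library A or EMD37 library B at 24 h. Caspase and IAP genes held more falls than rises, with 10 of 24 lower and 4 higher. The effector caspase gene CASP6 (-0.81 ± 0.16) and the IAP genes BIRC5 (-0.67 ± 0.08) and BIRC2 (-0.51 ± 0.08) fell, while CASP4, which responds to cytosolic lipopolysaccharide, rose (1.27 ± 0.10), as did CFLAR, an inhibitor of caspase 8 (0.45 ± 0.07). The 10 falls became 5 without EMD37 library A at 24 h.

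Autophagy genes that bind cargo mostly rose. Of 21 ATG8 homologs and cargo receptors 15 rose and 0 fell in edgeR, in DESeq2 or at an unadjusted p below 0.05, with a median of 0.58. GABARAPL1, an ATG8 homolog, rose from 16.0 and 14.8 to 176 and 186 CPM (3.56 ± 0.12, adjusted p = 9.42e-13 in edgeR), and SQSTM1, the cargo receptor p62, from 40.0 and 60.5 to 577 and 523 CPM (3.46 ± 0.13). MAP1LC3B, which encodes LC3B, changed by 1.44 ± 0.10, CALCOCO1 by 1.35 ± 0.13 and OPTN by 1.06 ± 0.09. Of 36 initiation and conjugation genes 18 rose and 5 fell. The scaffold RB1CC1 (1.23 ± 0.08), ATG14 (1.00 ± 0.09), ATG13 (0.94 ± 0.08) and VMP1 (1.05 ± 0.09) rose, and the initiating kinase gene ULK2 (-0.85 ± 0.15) and ATG16L1 (-0.56 ± 0.10) fell. The 5 falls became 3 in DESeq2 or with only the 24 h libraries or without EMD37 library A at 24 h. Of 42 lysosomal hydrolase and proton pump genes 20 rose and 5 fell. The sialidase NEU1 (1.37 ± 0.09), PSAP (0.97 ± 0.08) and the pump subunits ATP6V1C1 (1.07 ± 0.08) and ATP6V1H (0.99 ± 0.10) rose, and the protease CTSC fell from 72.5 and 68.6 to 35.0 and 35.5 CPM. The 5 falls became 3 without EMD37 library A or EMD37 library B at 24 h.

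Lipid genes moved both ways, the droplet and fatty acid lists at shares near those of all genes (19.6% higher, 21.1% lower). In the lipid droplet list 7 of 27 rose and 7 fell. The droplet coat gene PLIN2 rose from 64.1 and 62.2 to 168 and 192 CPM (1.51 ± 0.09) and G0S2, an inhibitor of lipolysis, by 1.06 ± 0.14, while DGAT2, which makes triglyceride (-1.85 ± 0.17), and FITM2, which helps droplets form (-1.01 ± 0.09), fell. In the cholesterol list 15 of 34 rose and 8 fell. The efflux pump ABCA1 rose from 37.1 and 35.5 to 156 and 166 CPM (2.15 ± 0.10), and INSIG1 (1.25 ± 0.10), LSS (1.19 ± 0.14) and HMGCS1 (0.85 ± 0.11) of the sterol-regulated set rose, but ACAT2 (-1.07 ± 0.16), PMVK (-0.73 ± 0.14) and EBP (-0.61 ± 0.12) of the same synthesis pathway fell. In the fatty acid list 9 of 31 rose and 8 fell: PPARGC1A, a coactivator of mitochondrial genes, rose from 3.42 and 2.48 to 14.4 and 17.1 CPM (2.40 ± 0.23), CPT1A, the gate of fatty acid oxidation, by 0.86 ± 0.11 and the desaturase SCD by 0.68 ± 0.07, while HADH (-1.12 ± 0.12) and ACACB (-1.79 ± 0.26) fell. The 8 falls became 5 with only the 24 h libraries and 4 without EMD37 library A at 24 h.

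The matrix proteases MMP1 and MMP3 rose, and matrix genes moved both ways. Of 17 protease and inhibitor genes 6 rose and 3 fell. The collagenase MMP1 rose from 112 and 100 to 691 and 740.1 CPM (2.76 ± 0.09) and MMP3 from 1.85 and 1.51 to 28.1 and 34.9 CPM, the inhibitors SERPINB2 (1.66 ± 0.30), SERPINE2 (1.21 ± 0.09) and TIMP3 (1.13 ± 0.07) rose as well, and RECK, a membrane inhibitor, fell (-1.06 ± 0.19). Of 35 matrix genes 7 rose (20%) and 9 fell (25.7%), near the shares of all genes (19.6% higher, 21.1% lower). The collagen hydroxylases PLOD2 (1.00 ± 0.08) and P4HA2 (1.28 ± 0.15) rose, and COL4A1 (-0.84 ± 0.09), COL12A1 (-0.59 ± 0.08) and COL13A1 (-0.85 ± 0.11) fell. The 7 rises became 11 with GC offsets and 12 without vehicle library B at 24 h. In the adhesion list 10 of 25 fell and 5 rose, with ITGA6 at -0.89 ± 0.07, ITGB1 at -0.43 ± 0.08 and ITGA2 at 0.67 ± 0.07. The 5 rises became 3 with no filter on low counts or without EMD37 library A at 12 h or without EMD37 library A or EMD37 library B at 24 h, 1 with only the 24 h libraries and 2 without vehicle library A at 24 h, and the 10 falls became 6 in DESeq2. Of 19 epithelial and mesenchymal genes 6 rose (31.6%) and 4 fell (21.1%, the same share as over all genes). The junction genes OCLN (2.12 ± 0.28) and CLDN4 (1.38 ± 0.14) and the regulator ZEB2 (0.93 ± 0.09) rose, and the regulator SNAI2 (-1.32 ± 0.09) and the keratin KRT7 (-0.81 ± 0.09) fell.

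Carriers of glucose and lactate rose, and respiratory chain genes held more falls than rises. Of 33 glucose genes 10 rose and 8 fell. The glucose carrier SLC2A3 rose from 43.2 and 51.9 to 260.1 and 280.4 CPM (2.51 ± 0.10), the lactate carrier SLC16A1 from 2.13 and 3.34 to 13.9 and 15.4 CPM (2.44 ± 0.21), PDK4, which shuts off pyruvate dehydrogenase, by 2.36 ± 0.26 and HK2 by 0.89 ± 0.07. The 8 falls became 4 in DESeq2 or without vehicle library B or EMD37 library B at 24 h, 5 with only the 24 h libraries and 1 without EMD37 library A at 24 h. Nuclear genes of the respiratory chain held 21 falls and 2 rises among 62, with a median of -0.15: SDHA fell from 63.0 and 62.9 to 43.8 and 44.8 CPM (-0.51 ± 0.09), ATP5MC1 changed by -0.60 ± 0.10 and ATP5PD by -0.73 ± 0.14, and COX7B rose (1.40 ± 0.31). The 21 falls became 13 without vehicle library A at 24 h and 9 without EMD37 library A at 24 h. The TCA cycle held 9 falls and 3 rises among 25. The 3 rises became 1 without EMD37 library A at 24 h, and the 9 falls became 5 in DESeq2 or without EMD37 library B at 24 h and 3 without vehicle library A or EMD37 library A at 24 h.

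RNA-handling genes moved both ways, against 19.6% higher and 21.1% lower over all genes, and the nucleolar and SR protein lists held falls at about that share. Of 37 initiation factors and their regulators 10 rose and 2 fell. EIF1 (0.88 ± 0.09) and EIF5 (0.53 ± 0.08) rose, as did EIF4EBP1 (0.96 ± 0.15), a brake on cap-dependent translation, and EIF4A2 fell (-0.46 ± 0.09). Nucleolar ribosome biogenesis held 10 falls and 5 rises among 46, including the RNA polymerase I genes POLR1E (-0.76 ± 0.08) and UBTF (-0.82 ± 0.09). The 5 rises became 8 with GC offsets and 2 without EMD37 library B at 24 h, and the 10 falls became 5 without EMD37 library A at 24 h. SR proteins and hnRNPs held 8 rises and 9 falls among 35, with SRSF7 at -0.68 ± 0.09, TRA2B at -0.57 ± 0.08 and SRSF6 at 0.50 ± 0.08. The 8 rises became 5 without EMD37 library B at 24 h, and the 9 falls became 4 without EMD37 library A at 24 h. Of 29 snoRNA host and nuclear noncoding genes listed, 16 were tested and 13 were not, NEAT1 and MALAT1 among the latter. NEAT1 rose by 3.67 ± 0.12 in the separate fit with recovered reads described below. Of the 16 tested, 4 rose and 5 fell. The microRNA hosts MIR22HG (0.74 ± 0.08) and MIR17HG (0.64 ± 0.08) rose, and SNHG12 fell (-0.65 ± 0.10). The 4 rises became 2 without vehicle library B or EMD37 library B at 24 h, and the 5 falls became 2 with only the 24 h libraries, 3 without EMD37 library B at 12 h or without vehicle library A or EMD37 library B at 24 h and 1 without EMD37 library A at 24 h.

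Chromatin and clock genes changed at shares near those of all genes (19.6% higher, 21.1% lower). Of 50 chromatin writers and erasers 13 rose and 9 fell. The deacetylase gene HDAC9 rose from 48.2 and 53.4 to 267 and 279 CPM (2.43 ± 0.09) and the demethylases KDM7A (2.18 ± 0.14) and KDM3A (1.00 ± 0.08) and the deacetylase SIRT1 (0.89 ± 0.09) rose, while EZH2, the catalytic subunit of Polycomb complex PRC2, fell from 13.0 and 13.9 to 4.96 and 4.25 CPM (-1.54 ± 0.19). Of 32 clock and nuclear receptor genes 8 rose and 6 fell, with RORA (1.51 ± 0.17) and the glucocorticoid receptor NR3C1 (0.83 ± 0.07) higher and NR2F1 (-1.31 ± 0.16) and NR2F2 (-0.96 ± 0.09) lower. The 8 rises became 5 without EMD37 library A at 24 h, and the 6 falls became 3 without EMD37 library B at 24 h. Of 21 hypoxia genes 10 rose and 3 fell, NDRG1 (2.32 ± 0.24), EPAS1, which encodes HIF-2 alpha (1.57 ± 0.11), and VEGFA (0.65 ± 0.08) rising. The 3 falls became 1 without EMD37 library B at 24 h.

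**Figure D3:**
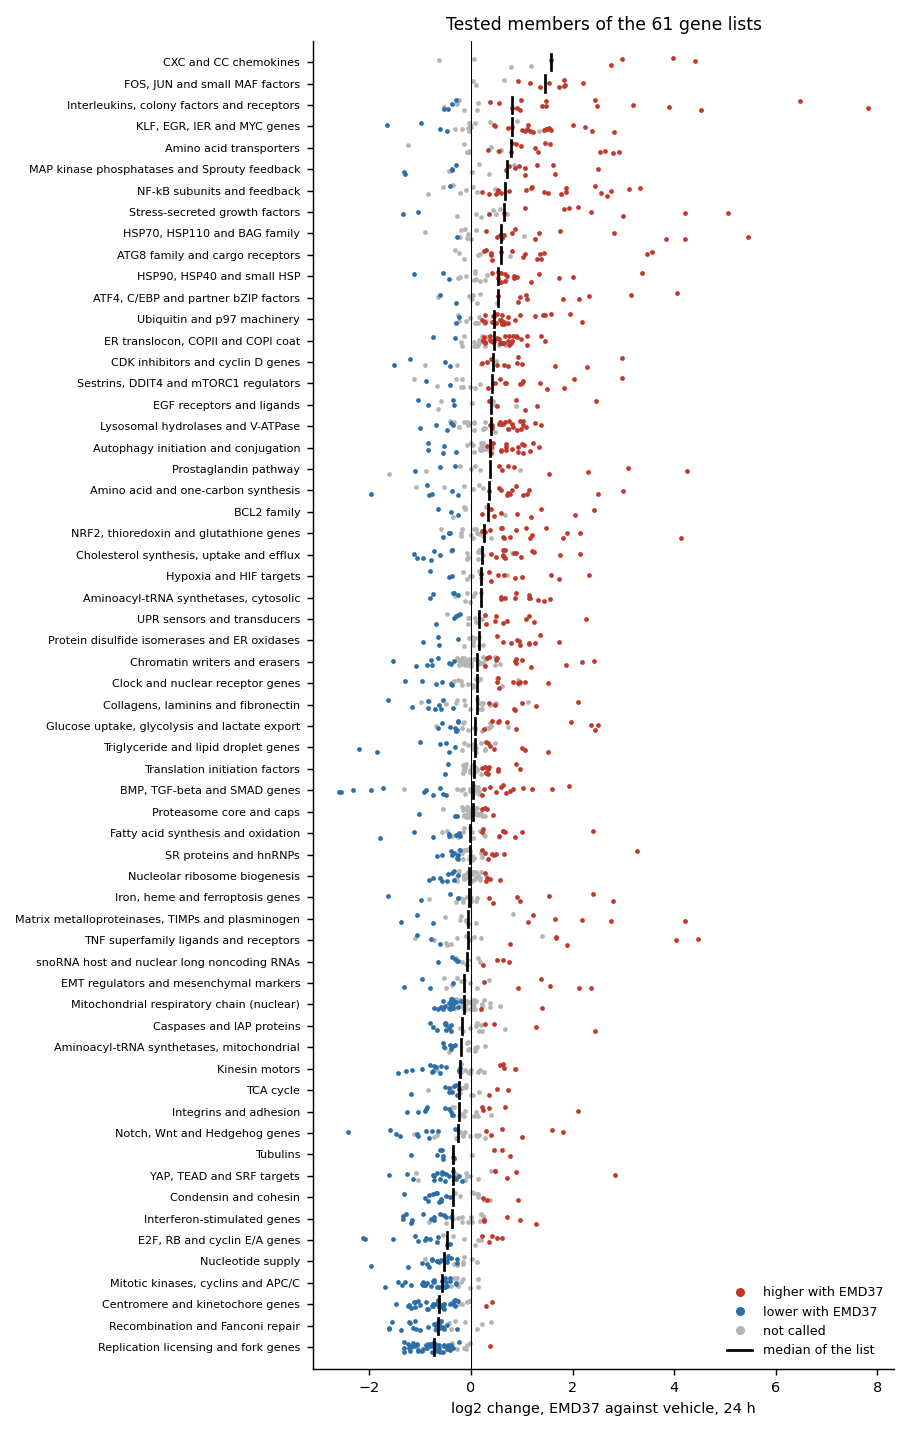
Log2 change of EMD37 against vehicle at 24 h for every tested member of the 61 gene lists, ordered by median, with red points for genes that rose, blue for genes that fell, grey for genes not called and a black bar at each list's median. Chemokine and AP-1 genes stand at the top with medians of 1.57 and 1.45, and replication genes at the bottom with -0.74.

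The motifs were more frequent in the promoters of the called list members than in all promoters, which describes lists chosen for known regulation and tests nothing. Of 38 chemokine, interleukin and NF-kB members that rose, 11 (28.9%) held a kappaB site, against 1.73% of all promoters and 3 of 19 members that did not rise. For the C/EBP-ATF element the shares were 15.6% of 45 risers, 5.41% of 37 other members and 3.19% of all promoters. For the heat shock element they were 10% of 30, 0% of 19 and 0.439%. An antioxidant element stood in 2 of 19 risers and in 2.65% of all promoters. E2F sites stood in 19 of 68 replication, repair and E2F genes that fell and in 6 of 26 that did not, and cell cycle homology regions in 21 of 64 mitotic genes that fell and 3 of 26 that did not. Over all genes tested a kappaB site stood in 2.28% of genes that rose, 2.06% that fell and 1.80% not called, and an E2F site in 8.72%, 9.89% and 8.30%. In the same order the shares were 0.403%, 0% and 0.0827% for the ER stress element and 0.581%, 0.202% and 0.281% for the heat shock element. They were 2.15%, 1.17% and 1.54% for the C/EBP-ATF element and 3.09%, 1.66% and 2.36% for the antioxidant element. For the cell cycle homology region they were 8.14%, 11.1% and 8.33%. Of the genes tested, 10760 matched a RefSeq promoter by symbol.

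**Figure D4:**
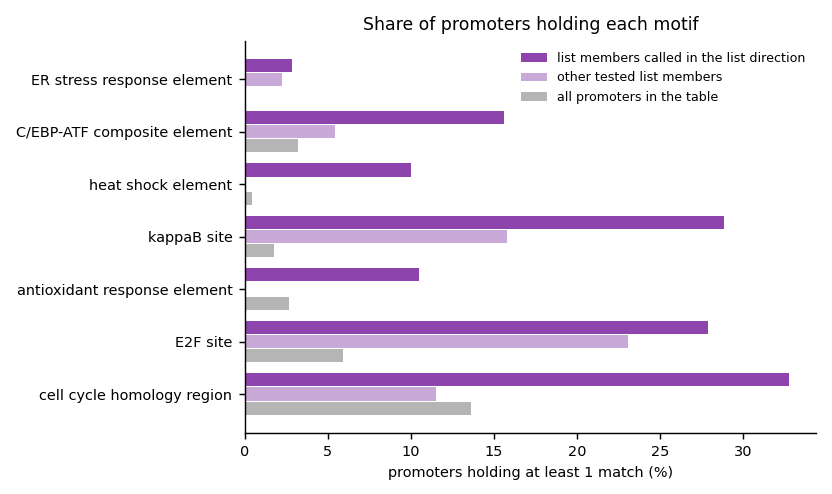
Percent of promoters, 250 bases each, holding at least 1 match to each motif on either strand, for list members called in the direction of their lists (dark), the other tested members (light) and all 27305 promoters (grey). The dark bar is the longest for each of the 7 motifs, and the light bars are at 0 for the heat shock and antioxidant elements.

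Some gene classes held fewer or more calls than all genes tested (19.6% higher, 21.1% lower), and others were near these shares. Protein-coding genes were called in 21.3% higher and 23.3% lower, long noncoding genes in 14.1% and 13.3%, and pseudogenes in 8.31% and 7.21%. Calls rose with level, from 9.55% and 6.63% below 2 CPM to 38.3% and 23.4% at 200 CPM and over, where counts are more precise. By chromosome the share that rose ran from 13% on chromosome 22 to 26.3% on chromosome 18. Zinc finger (ZNF) genes were near the shares of all genes, with 81 up (18.1%) and 87 down (19.5%) of 447. Solute carriers (SLC) held 59 rises (24.6%) and 42 falls (17.5%) of 240. Mitochondrial ribosomal protein genes (MRPL, MRPS) leaned down with 29 falls and 1 rise among 77. Genes with LINC names held 42 rises (22.1%) and 30 falls (15.8%) of 190, and antisense-named genes 46 (11.4%) and 57 (14.1%) of 403. The kit does not mark strand, so reads of an antisense gene and its partner cannot be told apart. Long noncoding genes were ranked by the same rule of at least 5 CPM in 1 group. Their largest rises were PDE7B-AS1, which rose from 5.92 and 4.95 to 71.2 and 60.9 CPM (3.59 ± 0.16), ENSG00000223901 (2.96 ± 0.22), ENSG00000226471 (2.93 ± 0.28), ENSG00000228793 (2.92 ± 0.34) and DLGAP1-AS1 (2.65 ± 0.26). The largest falls beside LCT-AS1 and LASTR were ENSG00000236393 (-2.01 ± 0.35), LINC02910 (-1.90 ± 0.28) and LINC01505 (-1.85 ± 0.30).

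Histone genes, counted as a class after their values were seen, mostly fell. Of 29 protein-coding histone genes tested, 22 fell and 0 rose in edgeR, in DESeq2 or at an unadjusted p below 0.05, with a median of -1.08, and at 12 h the median was 0.19. H2BC18 fell from 603 and 809 to 276 and 229 CPM (-1.48 ± 0.12), H2BC5 from 712 and 762 to 291 and 256 CPM (-1.43 ± 0.08), H2BC4 from 523 and 613 to 241 and 193 CPM (-1.39 ± 0.10) and H2AC20 from 315 and 401 to 129 and 102 CPM (-1.63 ± 0.11). Both EMD37 libraries were below both vehicle libraries in each. The linker histone H1-2 read 1153 and 1967 CPM with vehicle and 1091 and 886 CPM with EMD37, with vehicle library B far above the other 3, and its call (-0.66 ± 0.17) was lost without vehicle library B (-0.22, adjusted p = 0.0638), in DESeq2 and without EMD37 library B (adjusted p = 0.0873). Core histone genes are many near-identical copies, so the division of reads among them is uncertain.

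Most of the response at 24 h was not called at 12 h. At 12 h 782 genes were higher (5.27%) and 510 lower (3.43%). Of the genes that rose at 24 h, 621 (21.3%, and 79.4% of those that rose at 12 h) had risen at 12 h. Of those that fell, 365 (11.7%, and 71.6% of those that fell at 12 h) had fallen. The difference between the 2 effects was tested as the treatment by time term, and 2361 genes passed (15.9%), 1182 with a higher and 1179 with a lower effect at 24 h. Among genes that rose at 24 h, 1117 had a larger rise than at 12 h by this test and 30 a smaller one, and among genes that fell the numbers were 1066 and 1. These counts moved with single libraries. The 12 h rises numbered 387 to 1271 and the falls 106 to 958 over the 8 fits that left out 1 library, being fewest without EMD37 library B at 12 h and most without vehicle library B at 24 h. They moved by over 1.5 times without any 1 of the 12 h libraries and without either vehicle library at 24 h. The differences called numbered 677 to 1615 higher and 513 to 1621 lower, fewest without EMD37 library B at 12 h and most without vehicle library A at 24 h. The lower count moved by over 1.5 times without any 1 of the 12 h libraries or either EMD37 library at 24 h, and the higher count without vehicle library A or either EMD37 library at 12 h or EMD37 library B at 24 h.

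The 10 genes with the smallest p for a gain between the times included inflammatory, transport and matrix genes. TNFAIP3 changed by 0.45 ± 0.13 at 12 h and by 3.32 ± 0.12 at 24 h, a difference of 2.87 ± 0.18 (adjusted p = 6.6e-08 in edgeR). RAB27B, a GTPase of vesicle secretion, changed by -0.23 ± 0.10 and 2.41 ± 0.09, a difference of 2.64 ± 0.13, and ZNF114, GEM and MMP1 had differences of 2.46 ± 0.13, 2.21 ± 0.12 and 2.10 ± 0.13. SLC7A11 and SLC3A2, the 2 chains of the cystine carrier, had differences of 1.94 ± 0.10 and 1.61 ± 0.11. HDAC9 (1.68 ± 0.12), TRIM16L (1.62 ± 0.11) and LINC00472 (1.59 ± 0.10) completed the 10. ER genes were among the 10 for a loss: HERPUD1 was raised by 3.88 ± 0.10 at 12 h and by 2.18 ± 0.10 at 24 h, a difference of -1.71 ± 0.14 (adjusted p = 9.39e-07 in edgeR), and MANF, an ER-resident secreted factor, by 1.78 ± 0.08 and 0.47 ± 0.08, a difference of -1.31 ± 0.11. H3C12 (-2.06 ± 0.14), H2AC20 (-1.84 ± 0.16), H2BC18 (-1.80 ± 0.16), H2BC4 (-1.69 ± 0.14), H2BC5 (-1.65 ± 0.12), CDCA3 (-1.30 ± 0.11), RRM2 (-1.26 ± 0.10) and ENDOD1 (-1.22 ± 0.11) were the other 8. Each fell at 24 h, and at 12 h ENDOD1 alone of the 8 was called (-0.39 ± 0.07).

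Most lists that fell at 24 h held fewer falls at 12 h, as did all genes together (510 lower at 12 h, 3.43%, and 3128 at 24 h). Over all genes 5.27% were higher at 12 h, and the difference between the times was called in 15.9%. Replication genes went from 9 falls of 51 at 12 h to 44 at 24 h, and the difference itself passed in 33 of 51. Recombination and Fanconi genes went from 1 to 26 falls with 11 differences called, mitotic genes from 4 to 28 with 18, and kinetochore genes from 3 to 33 with 22. YAP, TEAD and SRF genes held 6 falls at 12 h and 19 at 24 h of 33, with 5 differences called, a share near that of all genes. On the rising side, NF-kB genes went from 11 rises to 21 with 11 differences called, ATG8 and cargo genes from 5 to 15 with 10, and lysosomal genes from 1 to 20 with 15. Disulfide isomerases and oxidases held 12 rises at 12 h and 11 at 24 h, with a median that went from 0.34 to 0.16 and 7 differences called. Cytosolic aminoacyl-tRNA synthetases held 7 and 11 rises, with 10 differences called.

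**Figure D5:**
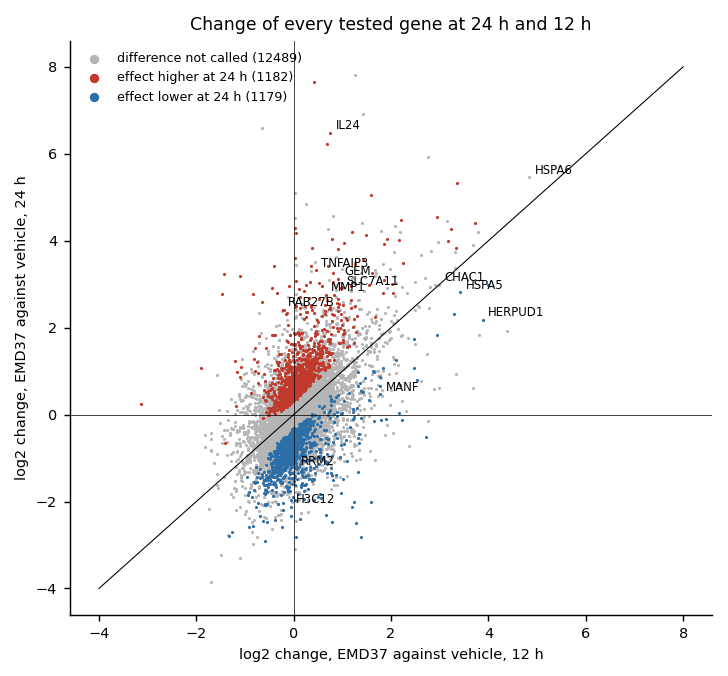
Log2 change of EMD37 against vehicle for each of the 14850 genes at 12 h (across) and 24 h (up), with red points where the effect was higher at 24 h by the test of the difference, blue where it was lower and grey where the difference was not called; the diagonal marks equal change. HERPUD1 and MANF lie below the diagonal on the rising side, and TNFAIP3, GEM and RAB27B far above it.

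Direction turned between the times in 37 genes, called one way at 12 h and the other at 24 h. The difference was called in all 37, which opposite calls in the same fit make nearly certain, so it adds no separate evidence. Named after their values were seen, CDC6, which loads the replicative helicase, changed by 0.64 ± 0.09 at 12 h and -0.67 ± 0.09 at 24 h, the histone H2AC21 by 0.67 ± 0.12 and -1.08 ± 0.12, and the lipopolysaccharide receptor TLR4 by -0.25 ± 0.08 and 0.53 ± 0.08.

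Genes outside the deposited count table were read from the authors' normalised table, where whole reads could be recovered, and were tested in a separate fit chosen after the data were seen. Of 3042 tested there, 404 were higher (13.3%) and 363 lower (11.9%). The riser shown first is NEAT1, the long noncoding RNA that scaffolds paraspeckles (ENSG00000245532, chromosome 11, 65422774 to 65445540). It read 294 and 310.2 CPM with vehicle and 3960.4 and 3746 CPM with EMD37, a rise of 3.67 ± 0.12 with adjusted p = 1.32e-14 in edgeR. LINC02392 read 0.169 and 0.192 CPM with vehicle and 5.59 and 5.05 CPM with EMD37 and SPACA7BP 0 and 0.0961 CPM with vehicle and 9.07 and 9.49 CPM with EMD37, and no fold is given because their vehicle libraries were under the floor of 3 reads. ENSG00000270681, annotated as antisense, rose by 4.08 ± 0.31. At 5 CPM or more in 1 group, falls were led by LINC01085 (-2.94 ± 0.33), the histone H2BC14 (-2.58 ± 0.16), ZNF488 (-2.40 ± 0.26), the histone H2BC3 (-1.95 ± 0.10) and ENSG00000267505 (-1.92 ± 0.22). Of 15 protein-coding histone genes in this set 12 fell, with a median of -1.48.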

How the data were processed

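Total RNA of 8 libraries of MDA-MB-231 cells was made into sequencing libraries with a kit that does not mark strand, per the labels' protocols. FastQC, STAR, DESeq2 and the genome build hg38 are named in the submitters' processing notes. Neither their versions and roles nor the counting program are given in the sources used here. Deposited by the authors were raw read counts per gene (36715 genes in the table used here) and a second table of normalised values (the signal analysed as an alternative), each a count divided by the library's size factor. For 6912 genes found only in the deposited normalised signal table, multiplying by that factor gave whole reads, within 0.01, for 100% of values. Genes of mitochondrial DNA had 0 reads, and several very abundant genes such as ACTB few.

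Raw counts were tested with edgeR 4.0.16 in R 4.3.3 (TMM, filterByExpr with minimum count 10, quasi-likelihood test, all 8 libraries in 1 fit, 4 residual degrees of freedom, 14850 genes tested, Benjamini-Hochberg adjustment). The common dispersion was 0.00537. Levels are CPM on TMM-scaled totals, and a floor of 3 reads was used. Standard errors rest on a spread shared over all 8 libraries, the 12 h ones included, and cover only counting error and that spread. The 24 h vehicle pair differed more than the other pairs. Its chi-square over degrees of freedom was 7.82, against 2.73 to 3.32 in the other groups. Whether the shared spread is too small for that pair was not tested. The fit was tested on simulated data before use. Gene positions are from GENCODE and promoters from RefSeq (GRCh38.p14, 250 bases before the start).

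Genes, lists and motifs were chosen with earlier results of these data known, and list counts are descriptions. Named genes were the 15 largest rises and falls among called genes with at least 5 CPM in 1 group and groups that did not overlap, the 10 largest CPM gains and losses, up to 6 members of each list by p and 3 against its majority, the 10 smallest p in each direction for the difference between times, the 5 largest noncoding and recovered changes each way, and up to 3 members per motif. Alternatives were DESeq2 1.42.0, RLE size factors, no filter, recovered reads, a replicate block, only the 24 h libraries, each library left out, and, chosen after seeing the data, GC offsets and a crossed block.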

Additional observations from a re-analysis of the deposited data

Results flagged for a closer look

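The effect of EMD37 differed between 24 h and 12 h in 2361 genes by the interaction test in edgeR, and 37 genes were called in opposite directions at the 2 times. Among the 20 genes with the smallest p that were also called at 24 h, the difference of the log2 effect, 24 h minus 12 h, was positive for TNFAIP3 (2.87 ± 0.18), RAB27B (2.64 ± 0.13), ZNF114 (2.46 ± 0.13), GEM (2.21 ± 0.12), MMP1 (2.10 ± 0.13), SLC7A11 (1.94 ± 0.10), HDAC9 (1.68 ± 0.12), TRIM16L (1.62 ± 0.11), SLC3A2 (1.61 ± 0.11) and LINC00472 (1.59 ± 0.10). It was negative for H3C12 (-2.06 ± 0.14), H2AC20 (-1.84 ± 0.16), H2BC18 (-1.80 ± 0.16), HERPUD1 (-1.71 ± 0.14), H2BC4 (-1.69 ± 0.14), H2BC5 (-1.65 ± 0.12), MANF (-1.31 ± 0.11), CDCA3 (-1.30 ± 0.11), RRM2 (-1.26 ± 0.10) and ENDOD1 (-1.22 ± 0.11). Each is picked out because its effect differs between the times by that test.

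Outside the count table, among genes whose reads were recovered from the normalised values, 404 were called higher and 363 lower at 24 h against the vehicle libraries.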

How the results depend on the processing

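All 342 genes named with a value kept their direction in each of the 16 alternatives at 24 h. The exceptions in the call were EEF1A1, lost with only the 24 h libraries and without EMD37 library B, and H1-2 and ID2, each lost in DESeq2 and without vehicle library B or EMD37 library B. The counts at 24 h stayed within 1.5 times of the main ones in every alternative: 2916 higher genes became 2458 in DESeq2 and 3626 with GC offsets, and 3128 lower genes became 2314 and 3302. Leaving out 1 library gave 2195 to 3056 higher and 2113 to 2941 lower, and 835 to 1035 higher and 565 to 646 lower by at least 2-fold. At 12 h leaving out 1 library gave 387 to 1271 higher and 106 to 958 lower, and for the difference between times 677 to 1615 higher and 513 to 1621 lower. In 12 h genes, DESeq2 called 336 lower, GC offsets 1179 higher and 850 lower, and the crossed replicate block 839 lower. GC offsets gave 1815 genes with a higher effect at 24 h. The cause of these shifts was not tested. The labels do not say what the letters link, and same-letter deviations correlated at -0.16 to 0.16 between groups (-0.16 between the 24 h groups), so the libraries were not treated as paired. With the replicate block 2858 genes were higher and 3037 lower at 24 h, and with the crossed replicate block 3243 and 3463. Depth limits genes near 3 reads, 0.262 to 0.334 CPM.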
